A study of Homo sapiens with 4 samples.

Results

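Aminoacyl-tRNA synthetases join each amino acid to the tRNA that carries it, at the cost of ATP, and so supply the charged tRNAs that ribosomes use. The cytosol and the mitochondria have separate sets of these enzymes, both encoded in the nucleus, and the mitochondrial set is imported after translation. In leukemia cells, as in other dividing cells, the cytosolic enzymes serve the synthesis of nearly all protein, whereas the mitochondrial ones serve the few proteins that the mitochondrial genome encodes. The transcripts of 36 synthetase genes, 20 cytosolic and 16 mitochondrial, were examined among the 64252 genes of the count table. The genes were chosen by name: a symbol that ends in 2 marked the mitochondrial enzymes, PARS2 and EARS2 included, and the others were taken as cytosolic. All 36 were found by their Ensembl identifier, and all 36 passed the count filter that left 17971 genes for testing. The aspartyl-tRNA synthetases were not analysed here.

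Cells labelled NB4 were kept for 24 h with 8 μM dBET1 or with DMSO, its solvent, and 2 libraries were sequenced from each condition. NB4 is known as a promyelocytic leukemia line with the PML-RARa fusion, but the marker transcripts given below go against that label. Both groups carry the same label, with no other genetic change named. dBET1 is a PROTAC, a molecule that joins a ligand of BET bromodomain proteins to one that binds cereblon (CRBN), part of a ubiquitin ligase, so that these proteins are tagged and degraded. Nothing in the labels says that the 2 libraries of a condition came from separate cultures, so the p-values measure only the spread between these libraries, which may be technical.

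The libraries held 28019956 to 34685645 counts. The primary granule genes that define promyelocytes (CTSG, PRTN3, AZU1, ELANE and MPO) summed to 17 and 15 counts with DMSO and to 55 and 25 with dBET1, and ELANE and CTSG had 0 counts in every library. The 10 erythroid markers, globins among them, summed to 165888 and 171200 counts with DMSO and to 100826 and 101707 with dBET1. Of these 10 markers 8 were lower after dBET1, while 27.6% of all genes tested were lower. The log2 fold changes went down to -2.19 for KLF1, an erythroid transcription factor, and TAL1 and EPOR did not pass the test. Erythroid transcripts thus moved in the same direction as the synthetases. Their part in the results was not tested. The near absence of granule transcripts and the abundance of globin transcripts, in the DMSO libraries as well, go against the label NB4, so NB4 is used here only as the name the libraries carry. Fewer cells of a type and less RNA per cell cannot be told apart in such bulk libraries.

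Most synthetase transcripts were lower after dBET1. Of the 36 genes, 30 were lower and 1, QARS1, was higher, by the quasi-likelihood test of edgeR at a threshold of 0.05 after Benjamini-Hochberg correction over all genes tested, while among all 17971 genes 27.6% were lower and 28% were higher. At the additional limit of a log2 fold change below -1, which the study's methods set, 10 of the 36 were lower, a share of 27.8% against 8.54% of all genes. The median log2 fold change was -0.73 for the 36 genes and 0.048 for all genes tested. Among the 9838 genes whose mean level lay within the range of the synthetases, 41.1% were lower, 9.99% were lower past the limit, and the median was -0.17. Levels are given as CPM, that is, counts scaled to the normalized size of the library.

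In 33 of the 36 genes the levels of the dBET1 libraries did not overlap those of the DMSO libraries, which was also so for 79.3% of all genes tested. The genes whose ranges overlapped were TARS3, PARS2 and VARS2, the 3 members with the lowest level per kilobase of transcript with DMSO. The transcripts of the 20 cytosolic genes summed to 5014 and 4920 CPM with DMSO and to 2753 and 2822 CPM with dBET1. That is 56.1% of the DMSO level on this scale. The 16 mitochondrial genes summed to 1079 and 1059 CPM with DMSO and to 688 and 679 CPM with dBET1, or 63.9%. With total counts as the only scale the cytosolic and mitochondrial values were 64.9% and 74.0%. CPM is relative to the library, and RNA per cell was not measured. For both sets the replicates lay close together, and the groups were far apart. The summed cytosolic level was 4.65 and 4.64 times the mitochondrial one in the DMSO libraries and 4.001 and 4.15 times in the dBET1 libraries.

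**Figure D1:**
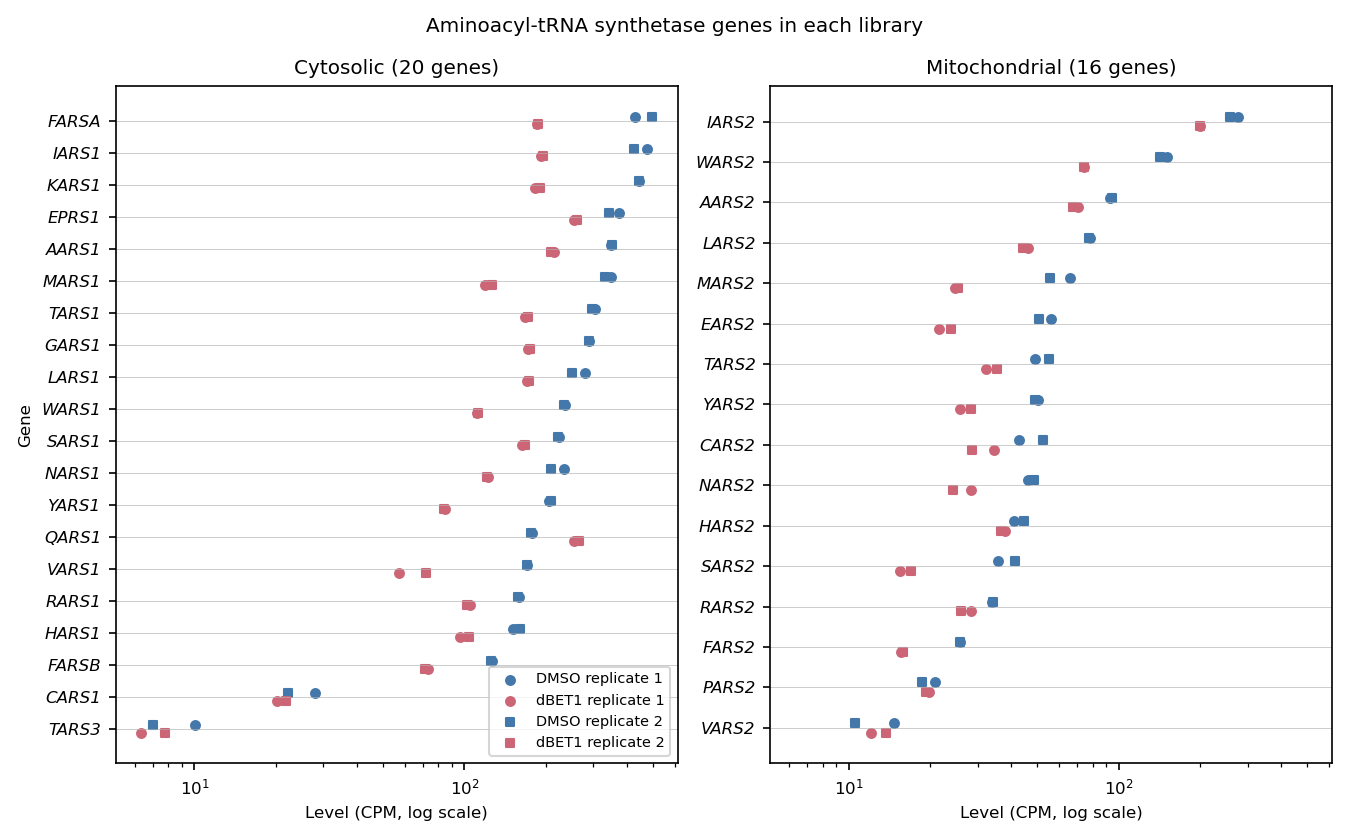
Level of each synthetase gene in each of the 4 libraries, in CPM on a log scale, with DMSO in blue and dBET1 in red (circle, replicate 1; square, replicate 2) and genes ordered by their mean level with DMSO. The red symbols lie to the left of the blue ones for nearly every gene, and QARS1 is the gene where they lie clearly to the right.

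Among the cytosolic genes 17 of 20 were lower, 1 was higher and 2 did not pass the test, and the median log2 fold change was -0.77. The genes past the limit of -1 were MARS1, VARS1, FARSA, YARS1, KARS1, IARS1 and WARS1. MARS1, whose enzyme charges both the initiator and the elongator methionyl-tRNA, had the lowest value. It measured 349 and 332 CPM in the DMSO libraries and 119 and 127 CPM in the dBET1 libraries, a log2 fold change of -1.47 (SE 0.075, adjusted p = 1.14e-05). VARS1, the valyl enzyme, measured 170 and 171 CPM with DMSO and 57.3 and 71.9 CPM with dBET1 (log2 fold change -1.40, SE 0.11, adjusted p = 4.69e-05). Its dBET1 libraries differed more from each other than its DMSO libraries did, yet both stayed far below them. IARS1, the isoleucyl enzyme, went from 476 and 426 CPM to 192 and 195 CPM (log2 fold change -1.22, SE 0.080, adjusted p = 2.28e-05).

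Phenylalanyl-tRNA synthetase of the cytosol is built from an alpha subunit, encoded by FARSA, and a beta subunit, encoded by FARSB. FARSA measured 427 and 496 CPM with DMSO and 186 and 187 CPM with dBET1 (log2 fold change -1.30, SE 0.088, adjusted p = 2.50e-05). FARSB measured 126 and 125 CPM with DMSO and 73.2 and 71.2 CPM with dBET1 (log2 fold change -0.80, SE 0.076, adjusted p = 0.000104). Both subunit transcripts were lower, FARSA by the larger factor. The log2 ratio of FARSA to FARSB was 1.87 ± 0.16 with DMSO and 1.37 ± 0.033 with dBET1 (SD, n = 2 in each group), and the libraries of the groups did not overlap in it. With 2 libraries against 2, an exact permutation test of such a ratio cannot give a two-sided p below 0.333.

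KARS1 and GARS1 each give both the cytosolic and the mitochondrial form of their enzyme, for lysine and for glycine, and have no mitochondrial partner gene. KARS1 measured 443 and 443 CPM with DMSO and 183 and 191 CPM with dBET1 (log2 fold change -1.25, SE 0.070, adjusted p = 1.33e-05). GARS1 went from 290 and 288 CPM to 172 and 175 CPM (log2 fold change -0.74, SE 0.069, adjusted p = 9.25e-05). Replicates of both genes differed by far less than the groups. Without these 2 genes the cytosolic median was -0.77, as with them.

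YARS1, the tyrosyl enzyme, measured 206 and 209 CPM with DMSO and 84.7 and 84.0 CPM with dBET1, a log2 fold change of -1.30 (SE 0.073). WARS1, the tryptophanyl enzyme and a gene that interferon gamma is known to induce, went from 237 and 234 CPM to 111 and 112 CPM, a log2 fold change of -1.07 (SE 0.071). Of the 7 genes past the limit WARS1 was closest to it, and with total counts as the only scale its value was -0.86. The cytosolic genes that were lower but short of the limit were NARS1, TARS1, FARSB, GARS1, AARS1, HARS1, LARS1, RARS1, EPRS1 and SARS1, with log2 fold changes from -0.86 for the asparaginyl gene NARS1 to -0.42 for the seryl gene SARS1. TARS1, the threonyl enzyme, went from 303 and 297 CPM to 168 and 172 CPM (log2 fold change -0.82, SE 0.069).

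QARS1, which charges glutamine in the cytosol and also holds a place in the multisynthetase complex, was higher after dBET1. It measured 177 and 176 CPM in the DMSO libraries and 254 and 266 CPM in the dBET1 libraries, 147% of the DMSO level. The log2 fold change was 0.56 (SE 0.071, adjusted p = 0.000406), and it was 0.50 to 0.77 across all the alternatives, each library left out included. QARS1 has no mitochondrial counterpart, since mitochondria make glutaminyl-tRNA by a detour through glutamyl-tRNA. In the annotation used here its exons overlap no other counted gene.

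The other 2 cytosolic genes did not pass the test. CARS1, the cysteinyl enzyme, measured 27.9 and 22.3 CPM with DMSO and 20.3 and 21.9 CPM with dBET1 (log2 fold change -0.25, SE 0.14, adjusted p = 0.162). Without DMSO replicate 2, however, its value was -0.43 with an adjusted p of 0.0130. TARS3, a further gene for a cytosolic threonyl enzyme, measured 10.02 and 7.05 CPM with DMSO and 6.36 and 7.76 CPM with dBET1 (log2 fold change -0.27, SE 0.23, adjusted p = 0.335). It had 191 to 327 counts per library, its groups overlapped, and no difference was detected with this spread between replicates.

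Among the mitochondrial genes 13 of 16 were lower and 3 did not pass the test, and the median log2 fold change was -0.67. None was higher by edgeR, by an unadjusted p under 0.05 or by DESeq2 (0 in each). The genes past the limit were MARS2, SARS2 and EARS2. MARS2, the methionyl enzyme of mitochondria, measured 66.1 and 55.7 CPM with DMSO and 24.8 and 25.5 CPM with dBET1 (log2 fold change -1.28, SE 0.11, adjusted p = 6.75e-05). SARS2, the seryl enzyme, went from 35.6 and 41.4 CPM to 15.5 and 17.0 CPM (log2 fold change -1.25, SE 0.12, adjusted p = 0.000129). EARS2, the glutamyl enzyme, which also starts the detour to glutaminyl-tRNA, went from 56.1 and 50.8 CPM to 21.6 and 23.9 CPM (log2 fold change -1.23, SE 0.11, adjusted p = 6.70e-05). In each of the 3 genes the highest dBET1 library lay below the lowest DMSO library.

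WARS2, the tryptophanyl enzyme, lay just short of the limit at -0.98 (SE 0.078) and passed it with DESeq2, at -1.02, without a count filter, at -1.04, and without DMSO replicate 2, at -1.06. The remaining 9 mitochondrial genes that were lower ranged from -0.87 for the tyrosyl gene YARS2 to -0.32 for the arginyl gene RARS2. TARS2, the threonyl enzyme of mitochondria, went from 48.8 and 55.3 CPM to 32.4 and 35.2 CPM (log2 fold change -0.62, SE 0.10, adjusted p = 0.00166). RARS2 was the least firm of these calls: its adjusted p was 0.0294, and it was 0.104 without dBET1 replicate 1 and to 0.224 without dBET1 replicate 2. Without the latter library AARS2, the alanyl enzyme, and CARS2, the cysteinyl enzyme, also missed the threshold, at adjusted p of 0.0514 and 0.0537 from edgeR.

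The mitochondrial genes that did not pass were HARS2, PARS2 and VARS2, for histidine, proline and valine. HARS2 had a log2 fold change of -0.20 (SE 0.096, adjusted p = 0.113), and without DMSO replicate 1 it passed the test at -0.29 (adjusted p = 0.0216). PARS2 measured 20.9 and 18.7 CPM with DMSO and 19.8 and 19.4 CPM with dBET1, a log2 fold change of -0.018 (SE 0.12, adjusted p = 0.917). VARS2 measured 14.6 and 10.5 CPM with DMSO and 12.1 and 13.7 CPM with dBET1, a log2 fold change of 0.032 (SE 0.19, adjusted p = 0.899). In PARS2 and VARS2 the dBET1 libraries lay within the range of the DMSO libraries.

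**Figure D2:**
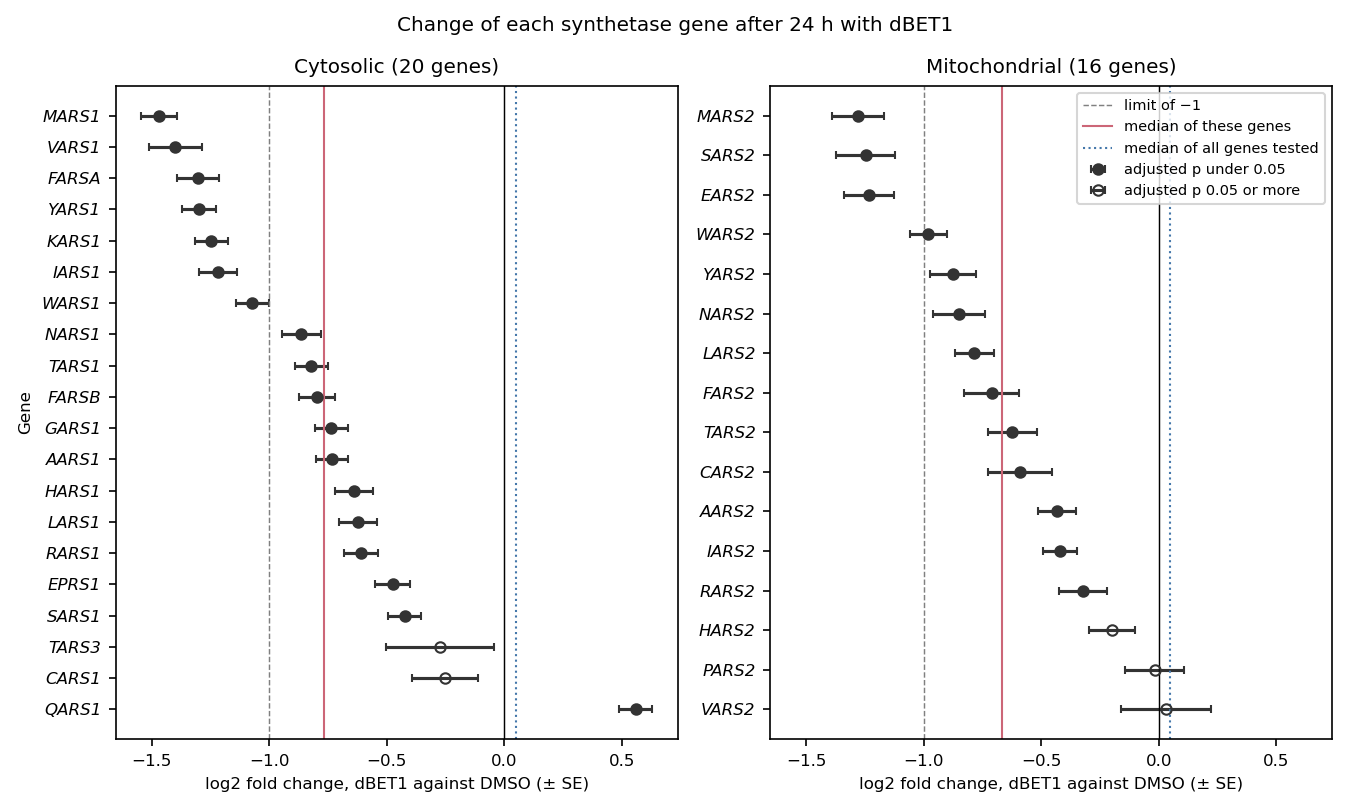
log2 fold change of each synthetase gene (dBET1 against DMSO, ± SE from the quasi-likelihood F statistic), with filled symbols where the adjusted p was under 0.05. The red line is the median of each set (-0.77 and -0.67), the dotted blue line that of all genes tested (0.048) and the dashed line the limit of -1; QARS1 is the only filled symbol to the right of 0.

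For 13 amino acids 1 cytosolic and 1 mitochondrial gene could be paired, and the ratio of the pair within a library does not depend on the scaling of that library. The threonyl pair was TARS1 and TARS2, and TARS3 was left out. The valyl pair differed most: the log2 ratio of VARS1 to VARS2 was 3.78 ± 0.34 with DMSO and 2.32 ± 0.099 with dBET1 (SD, n = 2 in each group), a change of -1.46 (SD of the difference 0.36). The isoleucyl ratio of IARS1 to IARS2 changed by -0.80 (SD of the difference 0.056), with IARS2 at 275 and 259 CPM with DMSO and at 200 and 199 CPM with dBET1. In both pairs the groups did not overlap, and the cytosolic transcript had the lower log2 fold change. The seryl pair went the other way, since SARS2 was past the limit and SARS1 was not. The ratio of SARS1 to SARS2 changed by 0.82 (SD of the difference 0.17), and that of LARS1 to LARS2 by 0.16 (SD of the difference 0.13). Of the 13 pairs 11 did not overlap between the groups, 9 with a lower ratio after dBET1 and 2, seryl and leucyl, with a higher one. No such share was computed for pairs of other genes.

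Both methionyl genes and both tryptophanyl genes had values near or past the limit. The ratios of these 2 pairs are among the 9 that were lower without overlap, but the changes were small. They were -0.20 for MARS1 to MARS2 (SD of the difference 0.13) and -0.094 for WARS1 to WARS2 (SD of the difference 0.055). The asparaginyl pair of NARS1 and NARS2 had a change of -0.0080 (SD of the difference 0.22) with overlapping groups. The cysteinyl pair also overlapped, with a change of 0.35 (SD of the difference 0.51). EPRS1 encodes a single cytosolic chain that charges both glutamate and proline, while mitochondria use EARS2 and PARS2 for these. The ratio of EPRS1 to EARS2 changed by 0.76 (SD of the difference 0.073) and that of EPRS1 to PARS2 by -0.46 (SD of the difference 0.054), so the 2 mitochondrial counterparts of this 1 gene lay on opposite sides of it. None of these ratios can reach a two-sided exact permutation p below 0.333.

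**Figure D3:**
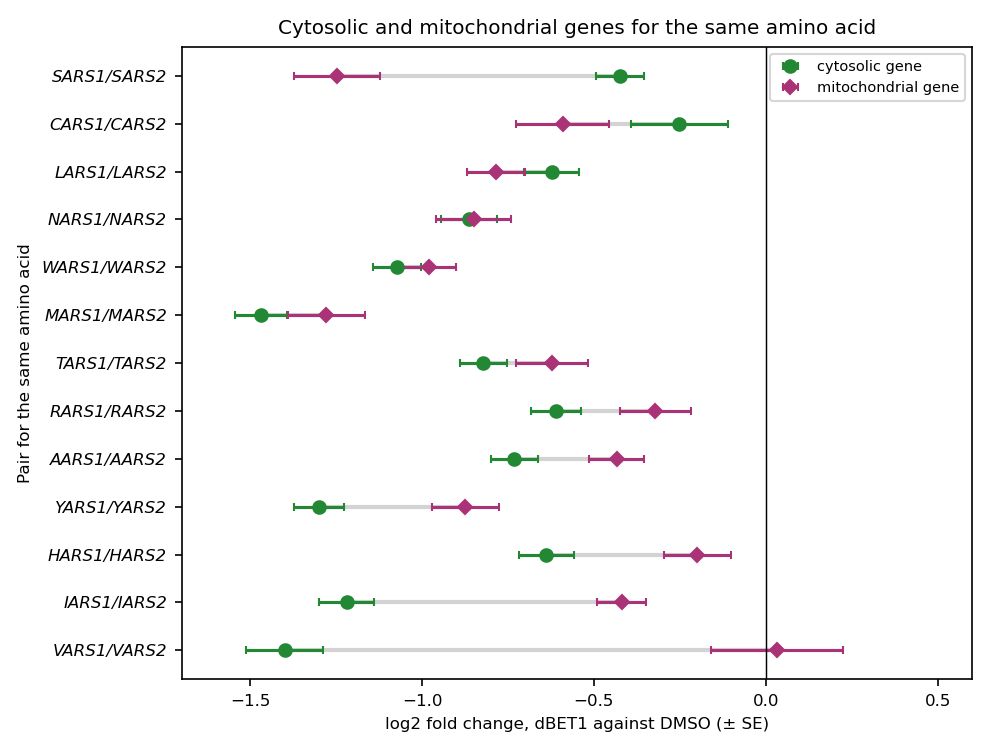
log2 fold change (dBET1 against DMSO, ± SE) of the cytosolic gene (green circle) and of the mitochondrial gene (purple diamond) of the 13 pairs for the same amino acid, joined by a grey line. The threonyl pair is TARS1 and TARS2, and TARS3 is left out. The valyl pair is the widest apart (-1.40 and 0.032), the asparaginyl pair nearly coincides (-0.86 and -0.85), and the seryl pair has the mitochondrial gene further to the left.

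Levels of different genes were compared as CPM per kilobase of the canonical transcript. With DMSO FARSA came first at 255 ± 26.8 and KARS1 next at 223 ± 0.213 (SD, n = 2), a difference of about the spread of FARSA, and then MARS1 at 122 ± 4.29, GARS1 at 119 ± 0.453 and SARS1 at 116 ± 0.519. The lowest levels were those of TARS3 at 2.45, VARS2 at 3.52, PARS2 at 8.41 and CARS1 at 9.16 CPM per kilobase. With dBET1 the order at the top was different: QARS1 stood at 106 ± 3.54, FARSA at 103 ± 0.386, KARS1 at 93.8 ± 2.93 and SARS1 at 86.7 ± 1.66. QARS1 moved from place 16 of 36 with DMSO, at 72.1 ± 0.481, to place 1, though it did not differ from FARSA beyond its spread. MARS1 moved from place 3 to place 13. Across the 36 genes the log2 fold change had a Pearson r of -0.31 with the log2 of the mean CPM. Its Spearman rho with the mean CPM was -0.34. The mean was taken over all 4 libraries, and both values are a description, since all genes share these libraries.

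The synthetases fall into 2 unrelated folds, class I and class II, which also differ in how they approach the tRNA. Of 19 class I genes 16 were lower and 1 higher (median log2 fold change -0.78), and of 17 class II genes 14 were lower and 0 higher (median -0.73). EPRS1, whose glutamyl part is of class I and whose prolyl part is of class II, was counted in class I. In the cytosol several synthetases are held together in the multisynthetase complex. Of its 7 synthetase genes 6 were lower and 1, QARS1, was higher (median -0.62), and of the 13 cytosolic genes outside the complex 11 were lower (median -0.80). The complex is built around 3 scaffold proteins. EEF1E1, also known as AIMP3, measured 137 and 132 CPM with DMSO and 44.6 and 43.3 CPM with dBET1 (log2 fold change -1.62, SE 0.081, adjusted p = 1.04e-05), a value below that of every synthetase. AIMP1 was lower too (log2 fold change -0.61, SE 0.087, adjusted p = 0.000791), while AIMP2 had a value of -0.013 (SE 0.083, adjusted p = 0.907).

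The transcription factor ATF4, which is made when uncharged tRNAs or other stresses slow translation, is known to induce many cytosolic synthetase genes through CARE sites. Of 13 synthetase genes listed as ATF4-responsive from general knowledge, 12 were lower and CARS1 did not pass (median log2 fold change -0.82), and of the 7 other cytosolic genes 5 were lower and 1 was higher (median -0.64). ATF4 itself measured 246 and 253 CPM with DMSO and 199 and 192 CPM with dBET1 (log2 fold change -0.35, SE 0.070, adjusted p = 0.00381). Among 20 tested genes of the ATF4 pathway outside the synthetases 11 were lower (55%) and 4 higher, with a median of -0.36, so both directions occurred there. Among all genes tested 27.6% were lower and 28% were higher. TRIB3, a pseudokinase that dampens the pathway, PSAT1, an enzyme of serine synthesis, and STC2, a secreted glycoprotein, had values of -1.46, -1.45 and -1.38. PPP1R15A, which directs the dephosphorylation of eIF2 alpha, was higher at 1.15. The count of 4 higher was 1 without either dBET1 library.

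RefSeq promoter sequences of GRCh38.p14, from 250 bases before to 50 after the start of the gene, were at hand for 30 of the 36 genes and were searched on both strands. LARS1, TARS3, VARS1, YARS1, AARS2 and VARS2 had no sequence and were not searched. VARS1 and YARS1, both past the limit, are thus absent from the comparisons by motif. The letters TGATGCAA, the core of a CARE site, stood in 6 of the 30 (20%) against 0.866% of all 35116 promoters. Among the 22198 promoters of protein-coding genes the share was 0.676%. The 6 were all cytosolic, and 5 of them were lower (83.3%), the same share as among all 36 members (83.3%). They are shown with the match or its reverse complement TTGCATCA in capitals and the strand of the gene after the coordinates:
AARS1, chr16:70289675-70289704, minus strand: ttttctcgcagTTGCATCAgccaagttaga
CARS1, chr11:3057407-3057436, minus strand: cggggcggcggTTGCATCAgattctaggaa
IARS1, chr9:92293692-92293721, minus strand: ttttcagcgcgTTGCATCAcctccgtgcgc
MARS1, chr12:57488053-57488082, plus strand: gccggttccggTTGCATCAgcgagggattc
NARS1, chr18:57621804-57621833, minus strand: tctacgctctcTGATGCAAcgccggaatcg
TARS1, chr5:33440956-33440985, plus strand: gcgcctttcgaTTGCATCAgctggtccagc

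The median log2 fold change of these 6 genes was -0.84, and it was -0.69 for the 10 other cytosolic genes with a promoter sequence, of which 9 were lower and 1 was higher. The genes with the match thus included both MARS1, the lowest value of all members, and CARS1, which did not pass. Among all 10978 tested genes with a promoter sequence, the 55 with TGATGCAA had a median of -0.45 and 45.5% were lower, against -0.020 and 33% of the others. With 1 letter left free (TGATGNAA) 7 of 30 promoters matched (23.3% against 3.62% of all and 2.69% of protein-coding genes), YARS2 being the added gene.

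CACGTG, the canonical E-box that MYC and other factors of its family bind, stood in 4 of the 30 promoters (13.3%) against 7.26% of all. Among promoters of protein-coding genes the share was 8.34%. All 4 members with it were lower, and so were 83.3% of the 36 members. Of the 4, MARS2, EARS2 and IARS1 were past the limit, as were 27.8% of the members. The display was chosen with these values known, so it is no test of the motif. The E-box is in capitals:
CARS2, chr13:110706501-110706530, minus strand: tgctgggatgcaCACGTGcttcgctaacag
EARS2, chr16:23557348-23557377, minus strand: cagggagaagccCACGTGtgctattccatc
IARS1, chr9:92293866-92293895, minus strand: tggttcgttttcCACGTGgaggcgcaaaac
MARS2, chr2:197705346-197705375, plus strand: atgcgcctctcaCACGTGctgtcagaacgc

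The median log2 fold change of these 4 genes was -1.23, and it was -0.73 for the 26 members whose sequence held no E-box, of which 22 were lower and 5 past the limit. Over the 10978 tested genes with a promoter sequence, 41.2% of the 1117 with an E-box were lower against 32.1% of those without. CCGGAAG, the core that ETS factors bind, stood in 14 of 30 promoters (46.7% against 10.3% of all and 12.8% of protein-coding genes). The start regions of HARS1 and HARS2 overlap, so that the same sites count for both. The 14 genes with CCGGAAG had a median log2 fold change of -0.69, and 11 were lower. The 16 members whose sequence held none had a median of -0.79, with 15 lower and 1 higher. Over the same 10978 genes, 38.4% of those with CCGGAAG were lower against 31.8% of those without. CCAAT stood in 16 (53.3% against 34.6%) and the palindromic NRF1 motif in 1, MARS2 (3.33% against 1.24%). Among protein-coding genes these shares were 34.7% and 1.5%. The motifs did not overlap one another in the members. A match describes the letters only, and binding was not measured.

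Several synthetase genes start head to head with a neighbour, and the values of such neighbours were set beside them. SARS2 had a log2 fold change of -1.25 and MRPS12, which encodes a mitochondrial ribosomal protein and starts 181 bases away, had -1.23. AARS1 (-0.73) and DDX19B (-0.70), FARS2 (-0.71) and LYRM4 (-1.002), and RARS2 (-0.32) and ORC3 (-0.43) were likewise lower on both sides. By contrast, WARS1 was lower at -1.07 while WDR25 was higher at 0.61 (adjusted p = 0.0225 from edgeR), and beside KARS1 (-1.25) and EARS2 (-1.23) the neighbours TERF2IP (0.15) and UBFD1 (0.17) did not pass the test. ING1 beside CARS2 (-0.59) did not pass either, at -0.11, and HARS1 (-0.64) and HARS2 (-0.20), which start head to head with each other, differed in that HARS1 was lower and HARS2 did not pass.

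Some exons overlap those of another counted gene, and the strand setting of the counting is not given in the sources used here. EARS2 shares 203 bases on the same strand with GGA2, which had 15746 counts over the 4 libraries against 4637 for EARS2 and a log2 fold change of -0.27, so the level of EARS2 is uncertain to that extent. HARS2 overlaps exons of ZMAT2, and HARS1 those of DND1, on the same strand as well, and HARS2 overlaps HARS1 by 108 bases on the opposite strand (4840 and 15514 counts), so their levels are uncertain too. SARS2 shares 1492 bases on the same strand with ENSG00000269547, which had 4 counts over the libraries against 3308 for SARS2. MARS1 overlaps DDIT3 on the opposite strand by 355 bases, with 28154 counts for MARS1 and 1919 for DDIT3. KARS1 overlaps TERF2IP by 176 bases on the opposite strand (38219 and 9364 counts). HARS1 overlaps WDR55 by 1090 bases on the opposite strand (15514 and 9528 counts), and WARS2 overlaps WARS2-AS1 by 168 bases (13416 and 10518 counts). The values of these genes may hold reads of their partners.

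Of 25 genes for tRNA maturation and export 19 were lower (76%) and 2 higher (median log2 fold change -0.68). Among all genes tested 27.6% were lower and 28% were higher. With total counts as the only scale 14 of the 25 were lower. HSD17B10, a subunit of mitochondrial RNase P, had -1.65, the RNase P and MRP subunits POP5 and POP7 had -1.24 and -1.18, and RPP25, a subunit of the same enzymes, was higher at 1.91, as was the tRNA 3' end nuclease ELAC1 at 1.95. XPOT, which exports tRNA from the nucleus, went from 293 and 246 CPM to 143 and 151 CPM (log2 fold change -0.87). Of 3 genes that remove wrongly charged amino acids 2 were lower, DTD1 at -0.95 and AARSD1 at -0.57.

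Delivery of charged tRNA to the ribosome had genes on both sides, with 3 of 6 lower (50%) and 1 higher. TUFM, the mitochondrial elongation factor that carries charged tRNA, measured 430 and 465 CPM with DMSO and 157 and 160 CPM with dBET1 (log2 fold change -1.50), and TSFM, its exchange factor, had -1.08. EEF1A1, the cytosolic carrier, measured 11178 and 13582 CPM with DMSO and 18637 and 18988 CPM with dBET1 (log2 fold change 0.60) and was higher. Of the cytosolic exchange factor subunits EEF1B2 was lower at -0.32 and the other two did not pass. In 6 genes of other charging routes, such as the glutaminyl detour and selenocysteine, 2 were lower (QRSL1 at -0.63 and GATC at -0.39), SEPSECS was higher at 0.87, and the median was -0.11. The share lower there, 33.3%, was near the 27.6% of all genes tested. Without dBET1 replicate 2 the higher genes of delivery were 2 instead of 1, and the lower genes of other routes were 1 instead of 2.

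**Figure D4:**
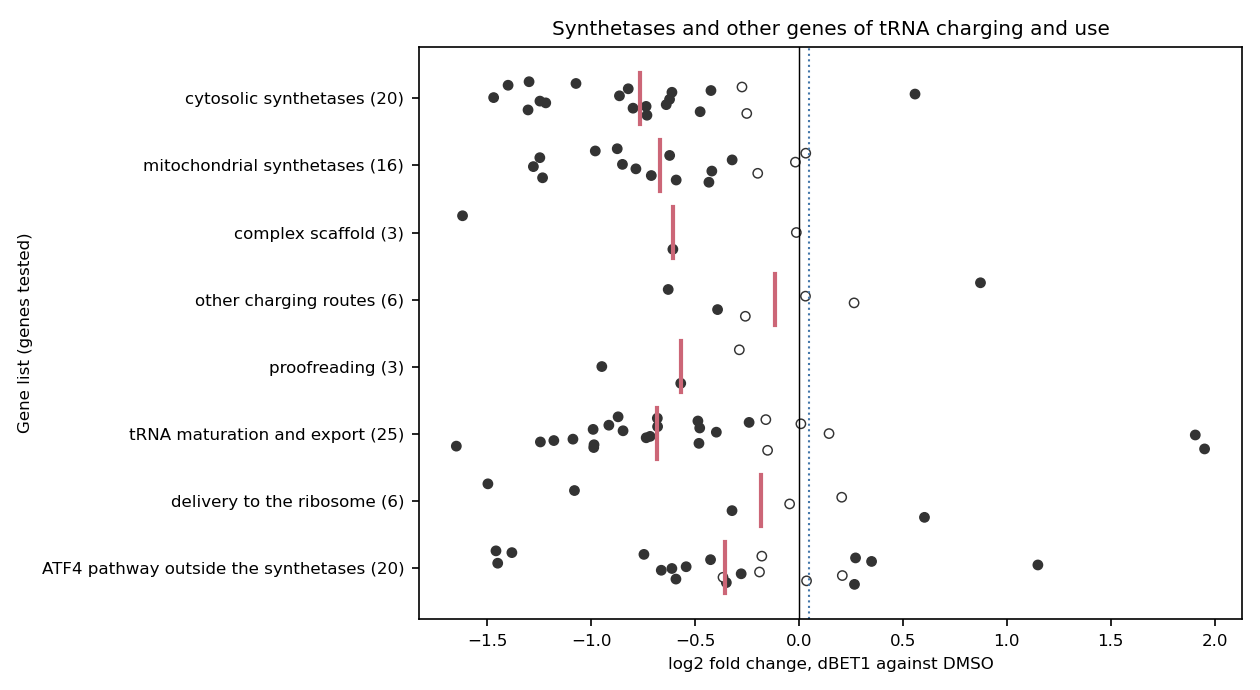
log2 fold change (dBET1 against DMSO) of the tested genes of each list, with filled circles where the adjusted p was under 0.05, a red bar at the median of the list and the median of all genes tested (0.048) as a dotted line. Both synthetase sets and the tRNA maturation list have their medians at or below -0.67, while the other charging routes (-0.11) and the delivery list (-0.18) lie closer to 0.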

How the data were processed

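RNA was sequenced from 4 libraries, 2 of dBET1 and 2 of DMSO, grouped by their titles. For alignment to hg38 the authors used HISAT2 (version 2.2.0, per the submitters' processing notes) and for quantification StringTie, and they deposited counts per gene for each library, with no normalization. The deposited counts were used as they stand. Library totals ranged from 28019956 to 34685645, and this depth limits the precision for genes with few counts. Columns named NC were taken as the DMSO libraries.

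Gene symbols were found for 56105 of 64252 identifiers. Genes with low counts were removed with filterByExpr (minimum count 10), libraries were scaled by TMM, and dBET1 was compared with DMSO by the quasi-likelihood test of edgeR 4.0.16 (limma 3.58.1, R 4.3.3), with Benjamini-Hochberg adjustment over 17971 genes and a threshold of 0.05. The limit of 1 on the absolute log2 fold change follows the study's methods. SE was taken as the log2 fold change divided by the square root of F. The procedure was tested on simulated data. Replicates of a group differed by more than counting noise (chi-square per degree of freedom 23.6 for DMSO and 8.14 for dBET1).

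Per-library values are given for the members past the limit, the member that was higher, FARSA and FARSB, GARS1 and KARS1, and the threonyl genes. From the other lists, AIMP1, AIMP2, EEF1E1, ATF4 and XPOT and at most 5 others per list by size of change are named. CARS1, IARS2, PARS2 and VARS2 were given per library, and neighbouring and overlapping genes were named, after their values were seen. The members and lists were chosen with earlier results of these data known. Alternatives were DESeq2 1.42.0, its size factors, total counts as the only scale, other count filters, halved counts, a replicate block, and each library left out.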

Additional observations from a re-analysis of the deposited data

How the results depend on the processing

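The count of lower members was 27 to 31 over all alternatives, and QARS1 was higher in each. The median log2 fold change of all members, the cytosolic and the mitochondrial genes (-0.73, -0.77 and -0.67) was -0.52, -0.56 and -0.46 with total counts only, -0.77, -0.80 and -0.70 with DESeq2, -0.79, -0.82 and -0.72 with no count filter, -0.66, -0.70 and -0.60 with at least 10 counts in every sample, and -0.70, -0.735 and -0.63 with counts divided by 2. With DESeq2 size factors it was -0.75 for all members and -0.68 for the mitochondrial genes, and without TARS3 the cytosolic median was -0.80. With each library left out the medians ranged from -0.76 to -0.75, from -0.80 to -0.78 and from -0.75 to -0.65. Total counts only moved the median of all genes from 0.048 to 0.26 and the calls over all genes from 4953 lower and 5038 higher to 3573 lower and 6703 higher. It put the summed level at 64.9% of DMSO for the cytosolic and 74.0% for the mitochondrial genes, and gave 1 lower and 2 higher among the other charging routes. The genes of the ATF4 pathway that were higher numbered 2 with DESeq2, 1 with no count filter, and 1 to 4 with each library left out (4 as reported). With each library left out, the lower genes of other charging routes were 1 to 2 and the higher genes of delivery were 1 to 2.

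Only values near 0 changed sign: HARS2 (0.012) and PARS2 (0.19) with total counts only, VARS2 with DESeq2 (-0.0035), with no count filter (-0.023), without DMSO replicate 2 (-0.21) and without dBET1 replicate 2 (-0.078), and PARS2 with at least 10 counts in every sample (0.053), with counts divided by 2 (0.013) and without DMSO replicate 1 (0.040). With each library left out PARS2 ranged from -0.13 to 0.040 and VARS2 from -0.21 to 0.26. None of these passed the test. RARS2 missed the threshold with total counts only (-0.11, adjusted p = 0.396 from edgeR) and with at least 10 counts in every sample (-0.25, adjusted p = 0.0638 from edgeR). Where a value moved, the cause was not tested.

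With a replicate block the medians were -0.73, -0.77 and -0.67, with 30 members lower, and the block changed no call of a member. No shared deviation of same-numbered libraries was seen, since their deviations from their group means had a correlation of 0.0023 over genes. Each group gives only a single such difference, so this value cannot tell whether same-numbered libraries were handled together.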
